A study of Mus musculus with 2 samples.

Results

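A group of 10 genes of the core cell cycle machinery were followed in cultured mouse neural stem/progenitor cells (NSPCs): the D-type cyclins *Ccnd1*, *Ccnd2* and *Ccnd3*, the later cyclins *Ccne1*, *Ccna2* and *Ccnb1*, the cyclin-dependent kinases *Cdk2*, *Cdk4* and *Cdk6*, and *Cdkn1b*, which encodes the inhibitor p27. They were chosen by name, as members of this pathway that are present in the count table. None is among the S and G2/M genes by which the deposited cell cycle phases were scored. They made up 10 of the 15046 genes measured. The study asked how lipid droplets (LDs) relate to the behaviour of NSPCs and sorted cells by PLIN2-GFP, a fusion of GFP to the LD coat protein perilipin 2. The NSPCs came from the subventricular zone (SVZ) of male C57/Bl6 mice aged 6 to 8 weeks, were passaged at least 5 times as neurospheres with 20 ng/ml of both EGF and FGF-2, and carried the reporter from a Moloney retrovirus. All cells of both categories belong to the same infected and expanded line, and no untransduced cells were included. The data thus describe a single proliferating line that was given no further treatment. Whether both plates came from the same culture or sort is not given in the sources used here. On each of 2 plates of 384 wells, the cells with the 25% highest and the 25% lowest GFP signal were collected for single-cell RNA sequencing by SORT-seq, a 3′ method that counts unique molecular identifiers (UMIs).

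Cyclins are the regulatory subunits of the cyclin-dependent kinases (CDKs) and rise and fall as a cell passes through its division cycle. D-type cyclins respond to mitogens and act with CDK4 and CDK6 on the retinoblastoma protein in G1 phase, which releases the E2F transcription factors. Cyclin E and then cyclin A act with CDK2 around the start of DNA replication and through S phase, and cyclin B with CDK1 drives entry into mitosis. p27 binds cyclin-CDK complexes and restrains them, and its amount is known to be set largely through protein degradation, which RNA counts do not measure. In the adult SVZ, cyclin D2 is known for its part in the division of neural precursors.

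The table held 304 cells, 179 on plate 1 and 125 on plate 2, with 1170 to 34630 UMIs per cell and a median of 10774. Of these, 137 were high PLIN2-GFP NSPCs and 167 low PLIN2-GFP NSPCs, and the deposited phase calls placed 132 of them in G1, 77 in S and the remaining 95 in G2/M. The median depth was 9049 UMIs for G1, 13560 for S and 11333 for G2/M cells, and 12774 in high against 9825 in low PLIN2-GFP NSPCs. Because cells of a plate are not replicates, UMIs were summed over cells per plate, and the 2 plates served as replicates. Both plates hold the same line, and the main fits took out the difference between plates. The p-values below thus set each difference between groups against the spread left after that, which may be technical. The fits left 1 to 5 residual degrees of freedom, so the test drew this spread largely from all genes together, not from each gene alone. All 5 NSPC markers (*Fabp7*, *Vim*, *Nes*, *Hes1*, *Sox2*) were above 0 in each plate and category, with a summed level of 6294 to 6404 CPM (counts scaled to a common library total). Neuron markers summed to 422 to 567 CPM, with 3 of 5 in the table and the defining genes *Dcx* and *Tubb3* not listed, astrocyte markers to 65.3 to 112 CPM, with *Gfap* at 0 on plate 2 and the high category above the low one on each plate, and endothelial markers to 0.583 to 6.86 CPM, with *Cldn5* not in the table. None of the 4 microglial markers was in the table. The plates shared 59 well barcodes, which come from the same set of primers. No row of wells held both PLIN2-GFP categories, so the category and the place on the plate cannot be told apart.

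The 10 genes lie on 7 chromosomes of GRCm38. In the GENCODE annotation *Ccnd1* spans chr7:144929931-144939925, *Ccnd2* chr6:127125162-127152193 and *Ccnd3* chr17:47505051-47599691. *Ccne1* lies at chr7:38097984-38107534, *Ccna2* at chr3:36564865-36572150 and *Ccnb1* at chr13:100778650-100786570. The kinases are at chr10:128697939-128705031 (*Cdk2*), chr10:127063534-127067920 (*Cdk4*) and chr5:3341485-3531008 (*Cdk6*), and *Cdkn1b* is at chr6:134920401-134925513. All are protein coding. For 7 of them an exon overlaps an exon of a gene on the opposite strand (*Ccnd1* with *LTO1*, *Ccnd2* with *Gm43126* and *9330179D12Rik*, *Ccnd3* with *Bysl*, *Ccna2* with *Exosc9*, *Cdk2* with *Pmel*, *Cdk4* with *Tspan31*, *Cdk6* with *Gm17590*). Whether strand was used in counting is not given in the sources used here, so UMIs from the overlapping stretches of these pairs cannot be told apart. Of the neighbours, *9330179D12Rik*, *Pmel* and *Gm17590* are not in the count table. *Ccne1*, *Ccnb1* and *Cdkn1b* have no such overlap.

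Promoter sequences of 4 members are shown because these genes have different phase profiles in the values that follow: *Ccnb1* was highest in G2/M, *Cdk2* and *Ccne1* in S, and *Cdk4* differed little between phases. Each stretch runs from 250 bases before to 50 bases after the annotated start and is taken from RefSeq on GRCm38.p6, 5′ to 3′ on the strand of the gene. Capitals mark matches, on either strand, to 4 motifs known from cell cycle promoters: the CCAAT box (CCAAT), the cell cycle homology region (TTTGAA), the E2F motif in 4 forms (TTCCCGC as the first, TTCGCGC as the next, then TTGCCGC and also TTGGCGC) and the E-box (CACGTG).
*Ccnb1*, chr13:100786437-100786736, minus strand: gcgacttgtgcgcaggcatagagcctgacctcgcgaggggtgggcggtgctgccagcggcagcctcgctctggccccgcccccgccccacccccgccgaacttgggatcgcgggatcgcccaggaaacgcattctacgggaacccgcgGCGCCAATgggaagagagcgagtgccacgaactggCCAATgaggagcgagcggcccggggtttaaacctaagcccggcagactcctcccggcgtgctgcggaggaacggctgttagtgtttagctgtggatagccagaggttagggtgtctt
*Cdk2*, chr10:128705002-128705301, minus strand: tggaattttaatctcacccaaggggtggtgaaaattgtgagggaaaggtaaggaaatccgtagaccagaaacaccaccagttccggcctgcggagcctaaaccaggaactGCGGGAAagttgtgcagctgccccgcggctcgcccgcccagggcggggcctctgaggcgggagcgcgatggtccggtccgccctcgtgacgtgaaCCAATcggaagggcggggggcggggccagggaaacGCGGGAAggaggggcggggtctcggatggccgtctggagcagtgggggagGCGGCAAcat
*Ccne1*, chr7:38107441-38107740, minus strand: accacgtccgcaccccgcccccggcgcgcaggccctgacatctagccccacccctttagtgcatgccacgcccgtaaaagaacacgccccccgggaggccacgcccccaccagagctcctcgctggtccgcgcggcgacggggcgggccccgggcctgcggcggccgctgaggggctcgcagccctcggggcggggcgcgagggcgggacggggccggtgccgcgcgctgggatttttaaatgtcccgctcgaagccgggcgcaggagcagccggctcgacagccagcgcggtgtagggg
*Cdk4*, chr10:127063285-127063584, plus strand: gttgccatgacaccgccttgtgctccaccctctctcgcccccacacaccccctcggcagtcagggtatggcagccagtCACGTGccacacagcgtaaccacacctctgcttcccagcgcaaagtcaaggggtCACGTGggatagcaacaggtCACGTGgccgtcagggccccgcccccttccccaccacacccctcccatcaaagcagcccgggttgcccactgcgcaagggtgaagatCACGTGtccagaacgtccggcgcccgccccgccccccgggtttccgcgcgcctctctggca
Counting the first transcribed base as 1, the *Ccnb1* stretch held CCAAT boxes starting at -99 and -67 and an E2F match at -102 that overlaps the first of them. The *Cdk2* stretch held E2F matches at -140, -10 and 41 and a CCAAT box at -45, and the *Cdk4* stretch held 4 E-boxes, at -172, -118, -98 and -11. None of the searched letters was found in the *Ccne1* stretch. Of 32851 mouse promoter stretches of the same length, 37.4% held a CCAAT box, 17.9% the cell cycle homology region, 9.57% an E2F match and 7.15% an E-box. These matches describe the sequence and were not tested as binding sites. Entries were found for 7 of the 10 members, and *Ccnd1*, *Ccnd2* and *Ccna2* had none.

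The first comparison asked how the level of each member differed between the deposited phases. The phases come from scores of S and G2/M genes against control genes. No member is among the S and G2/M genes, but whether any is among the control genes is not known here. The members also share the cells and libraries of the call. Levels are CPM of the summed UMIs after TMM scaling, given for plate 1 and then plate 2. Log2 differences of a single plate, between phases or between categories over all phases, were computed with a small count added to each sum. This draws them toward 0 for genes with few UMIs, so they can be smaller than the fitted value. A gene was called when its adjusted p (edgeR's quasi-likelihood test with plate as a block, Benjamini-Hochberg over all genes tested) was under 0.1. In each phase comparison 9 of the 10 members passed the filter on low counts, all but *Cdk6*, and 7650 genes were tested. *Ccne1* and *Ccnd3* passed only through their S sums and *Ccna2* only through its S and G2/M sums, so a difference for these 3 was partly set by the filter and the counts of called members are descriptive.

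Between S and G1 phase, *Ccna2*, *Ccne1* and *Cdk2* were higher in S and no member was lower, against a background over all genes of 7.56% called higher and 5.19% called lower. Between G2/M and G1, *Ccna2*, *Ccnb1* and *Cdkn1b* were higher in G2/M and *Ccnd1* and *Ccnd2* were lower, with backgrounds of 9.01% and 7.4%. Between G2/M and S, *Ccnb1* and *Ccna2* were higher in G2/M and *Ccnd1*, *Ccnd2* and *Cdk2* were lower, with backgrounds of 2.76% and 2.09%. *Cdk4* and *Ccnd3* were called in none of the 3 comparisons.

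**Figure D1:**
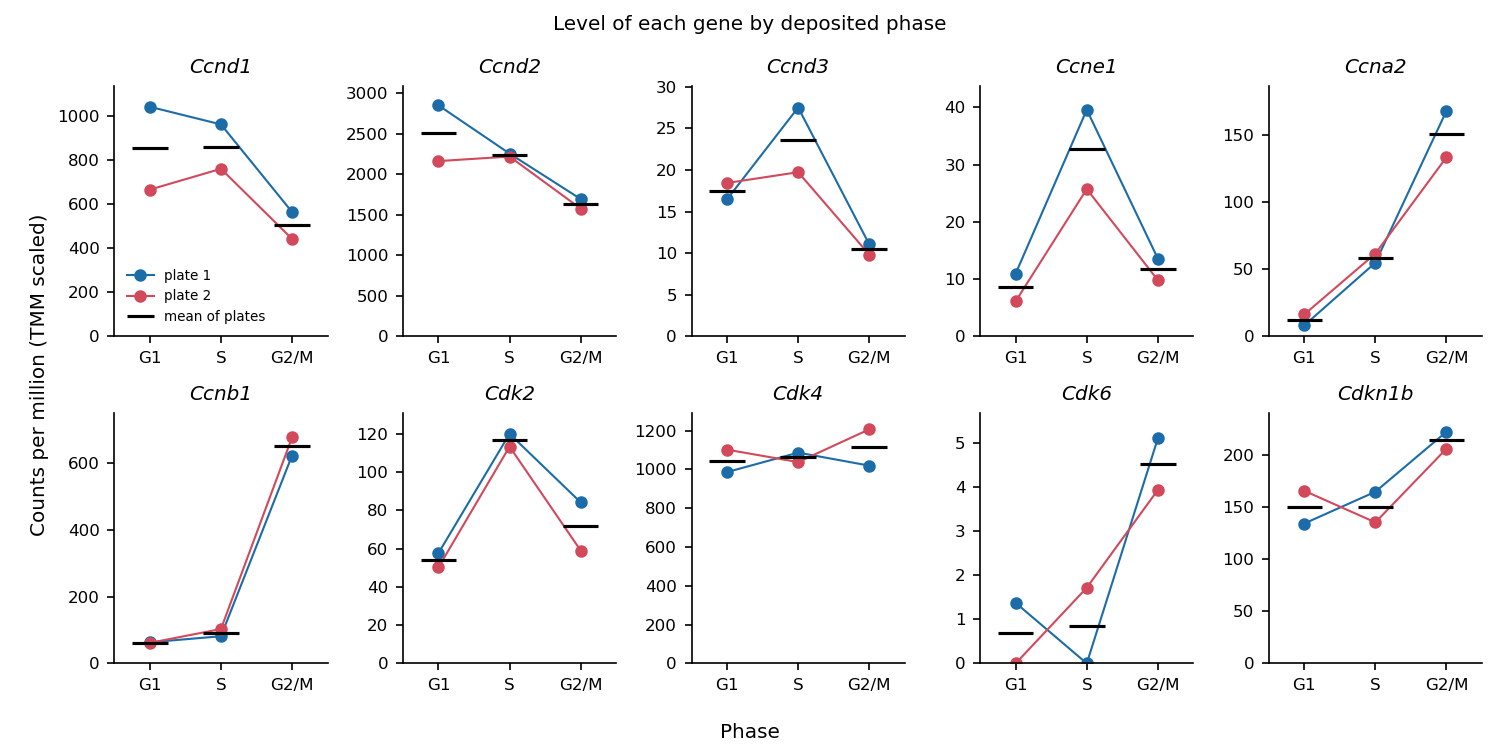
Level of each of the 10 members (CPM after TMM scaling, linear axis from 0, a separate scale per gene) in G1, S and G2/M cells, with 1 point per plate, a line that joins the points of a plate and a bar at the mean of the 2 plates. *Ccnb1* stands at 622 and 676 CPM in G2/M against 61.4 to 103 CPM in the other phases, *Ccne1* and *Cdk2* are highest in S on both plates, and *Ccnd1* and *Ccnd2* are lowest in G2/M on both plates.

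*Ccnd1*, the mitogen-induced cyclin that partners CDK4 and CDK6, was at 1041 and 666 CPM in G1, 961 and 760 CPM in S, and 564 and 442 CPM in G2/M. The G2/M values were below all G1 and S values, whereas G1 and S overlapped, and plate 2 was lower than plate 1 in each phase. *Ccnd1* fell by 0.76 (log2, SE 0.11) from G1 to G2/M (adjusted p = 4.93e-06) and by 0.78 (SE 0.11) from S to G2/M (adjusted p = 9.46e-06). The difference from G1 to G2/M was -0.88 on plate 1 and -0.59 on plate 2. Between S and G1 the log2 difference was 0.02 (SE 0.10, adjusted p = 0.929), with opposite signs on the plates (-0.11 and 0.19). Per cell, *Ccnd1* averaged 9.37 and 6.37 UMIs in G1, 10.7 and 12.3 in S, and 5.83 and 5.92 in G2/M.

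*Ccnd2*, the D-type cyclin tied to SVZ precursors, gave the most UMIs of the 10 (7248 over all cells). It was at 2849 and 2162 CPM in G1, 2254 and 2218 CPM in S, and 1694 and 1576 CPM in G2/M. As for *Ccnd1*, both G2/M values lay below all others and the G1 and S values overlapped. Per cell, *Ccnd2* averaged 25.6 and 20.7 UMIs in G1, 25.0 and 35.9 in S, and 17.5 and 21.1 in G2/M. On plate 2 its UMIs per cell thus did not fall from G1 to G2/M. In CPM, *Ccnd2* fell by 0.61 (log2, SE 0.08) from G1 to G2/M (adjusted p = 2.93e-06). From S to G2/M it fell by 0.46 (SE 0.08, adjusted p = 0.000601), a call that was lost without plate as a block (adjusted p = 0.171) and without S replicate 2 (adjusted p = 0.106), with adjusted p between 9.59e-07 and 0.171 over 19 settings. Between S and G1 the log2 difference was -0.16 (SE 0.08, adjusted p = 0.266). Without G1 replicate 2 this became -0.33 (adjusted p = 0.0213, range 0.0213 to 1.0 over 19 settings). The marker sums of astrocytes and NSPCs moved in the same direction as *Ccnd1* and *Ccnd2*. Those of astrocytes were at 128 and 93.5 CPM in G1 and 58.0 and 60.6 CPM in G2/M, and those of NSPCs at 6609 and 6769 CPM in G1 and 5914 and 6168 CPM in G2/M. Neuron markers fell on plate 1 (561 to 442 CPM) and rose on plate 2 (480 to 514 CPM). Endothelial markers rose on plate 1 (4.56 to 12.4 CPM) and were at 0.954 and 0.947 CPM on plate 2. The part of these markers in the result was not tested.

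*Ccnd3*, the remaining D-type cyclin, gave 56.5 estimated UMIs over all 304 cells. Its level was 16.5 and 18.4 CPM in G1, 27.5 and 19.7 CPM in S, and 11.1 and 9.83 CPM in G2/M. The S values were the highest and the G2/M values the lowest, but none of the comparisons was called, with log2 differences of 0.44 (SE 0.48, adjusted p = 0.667) for S against G1, -0.64 (SE 0.55, adjusted p = 0.535) for G2/M against G1 and -1.08 (SE 0.54, adjusted p = 0.377) for G2/M against S.

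*Ccne1*, which encodes the CDK2 partner cyclin E1, was at 11.0 and 6.14 CPM in G1, 39.6 and 25.7 CPM in S, and 13.6 and 9.83 CPM in G2/M. Both S values were above all others. These levels rest on 11 UMIs of G1, 33 of S and 13 of G2/M cells over both plates, or 8.52 (exact Poisson 95% interval 4.25 to 15.2), 31.6 (21.8 to 44.4) and 11.5 (6.12 to 19.7) CPM. These intervals, and the binomial ones given further on, cover counting error only. *Ccne1* passed the filter only through its S sums, so its differences between phases were partly set by the filter. It was higher in S than in G1 by 1.57 on plate 1 and 1.59 on plate 2 (log2, with the small count added). The fitted difference was 1.89 (SE 0.51, adjusted p = 0.0165), which was under the threshold. This call was lost with DESeq2 (adjusted p = 0.506) and without G1 replicate 1 (0.169), S replicate 1 (0.191) or S replicate 2 (0.135), with adjusted p from 0.00333 to 0.506 over 16 settings. For G2/M against S the log2 difference was -1.47 (SE 0.49, adjusted p = 0.112), and against G1 it was 0.42 (SE 0.62, adjusted p = 0.747).

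*Ccna2* encodes cyclin A2, which works with CDK2 in S phase and with CDK1 later. It was at 8.23 and 16.4 CPM in G1, 55.0 and 61.8 CPM in S, and 168 and 134 CPM in G2/M. The 3 phases did not overlap, and the order G1, S, G2/M held on both plates. *Ccna2* was higher in S than in G1 by 2.34 (log2, SE 0.39, adjusted p = 0.000135) and higher in G2/M than in G1 by 3.70 (SE 0.32, adjusted p = 5.8e-10). With the small count added, the plates gave 2.31 and 1.71 for the first and 3.86 and 2.78 for the second. Both differences were partly set by the filter, which *Ccna2* passed only through its S and G2/M sums. From S to G2/M the log2 difference was 1.36 (SE 0.24, adjusted p = 0.000314). That last call was lost with DESeq2 (adjusted p = 0.143), with limma voom (0.131) and in cells thinned to 5000 UMIs (0.152), with adjusted p from 1.35e-06 to 0.152 over 19 settings.

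*Ccnb1*, the mitotic cyclin B1, showed the largest fold difference among the members that passed the filter in every phase. It was at 63.1 and 61.4 CPM in G1, 81.4 and 103 CPM in S, and 622 and 676 CPM in G2/M. Both G2/M values were far above all other values. *Ccnb1* was 10.3-fold higher in G2/M than in G1 (log2 3.36, SE 0.16, adjusted p = 1.22e-15) and 6.99-fold higher in G2/M than in S (log2 2.80, SE 0.15, adjusted p = 1.56e-13). For S against G1 the log2 difference was 0.56 (SE 0.22, adjusted p = 0.128), positive on both plates (0.35 and 0.71). It passed the threshold with scaling to library size only (adjusted p = 0.0767) and with a minimum of 50 counts (0.0601), with adjusted p from 0.0601 to 0.736 over 19 settings. An average G2/M cell held 6.42 *Ccnb1* UMIs on plate 1 and 9.05 on plate 2, and an average G1 cell 0.568 and 0.588.

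*Cdk2*, the kinase of cyclins E and A, was at 57.6 and 50.2 CPM in G1, 120 and 113 CPM in S, and 84.1 and 59.0 CPM in G2/M. Both S values were the highest, and the G2/M values were above the G1 values. *Cdk2* was higher in S than in G1 by 1.13 (log2, SE 0.23, adjusted p = 0.00171), with 1.00 and 1.15 on the plates, a call lost with DESeq2 (adjusted p = 0.184, range 0.000295 to 0.184 over 19 settings). From S to G2/M it fell by 0.69 (SE 0.23, adjusted p = 0.0985), close to the threshold. This call was lost without plate as a block (adjusted p = 0.319), with DESeq2 (1.0) and with limma voom (0.135), and in cells thinned to 5000 UMIs the difference was -0.20 (adjusted p = 0.915, range 0.0358 to 1.0 over 19 settings). For G2/M against G1 the log2 difference was 0.44 (SE 0.25, adjusted p = 0.314).

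*Cdk4*, the kinase of the D-type cyclins, had similar levels in all phases: 986 and 1102 CPM in G1, 1087 and 1038 CPM in S, and 1020 and 1207 CPM in G2/M. The 3 phases overlapped. The log2 differences were 0.03 (SE 0.09, adjusted p = 0.914) for S against G1, 0.09 (SE 0.09, adjusted p = 0.614) for G2/M against G1 and 0.07 (SE 0.09, adjusted p = 0.822) for G2/M against S. Thus *Cdk4* moved by little on the scale on which its partners *Ccnd1* and *Ccnd2* fell, although a p above the threshold does not show equal levels. *Cdk6*, the other kinase of the D-type cyclins, gave 7 UMIs in all, 1 in each of 7 cells. They fell as 1 in a G1 cell, 1 in an S cell and 5 in G2/M cells, or 0.774 (exact Poisson 95% interval 0.0196 to 4.31), 0.958 (0.0243 to 5.34) and 4.42 (1.44 to 10.3) CPM. Its intervals overlapped between phases, and it passed the filter in no fit.

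*Cdkn1b*, the p27 gene, was at 134 and 166 CPM in G1, 165 and 136 CPM in S, and 223 and 206 CPM in G2/M. Both G2/M values were above all others, and G1 and S overlapped. *Cdkn1b* was higher in G2/M than in G1 by 0.54 (log2, SE 0.17, adjusted p = 0.0336), with 0.71 on plate 1 and 0.31 on plate 2. This call was lost without plate as a block (adjusted p = 0.163), with DESeq2 (0.644), in thinned cells (0.143), without G1 replicate 1 (0.589) and without G2/M replicate 1 (0.248), with adjusted p from 0.0114 to 0.644 over 19 settings. Without G1 replicate 1 the log2 difference was 0.29. Against S the log2 difference was 0.53 (SE 0.17, adjusted p = 0.106), which lay just outside the threshold and was past it in 8 of 19 settings. Between S and G1 it was 0.01 (SE 0.18, adjusted p = 0.979).

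**Figure D2:**
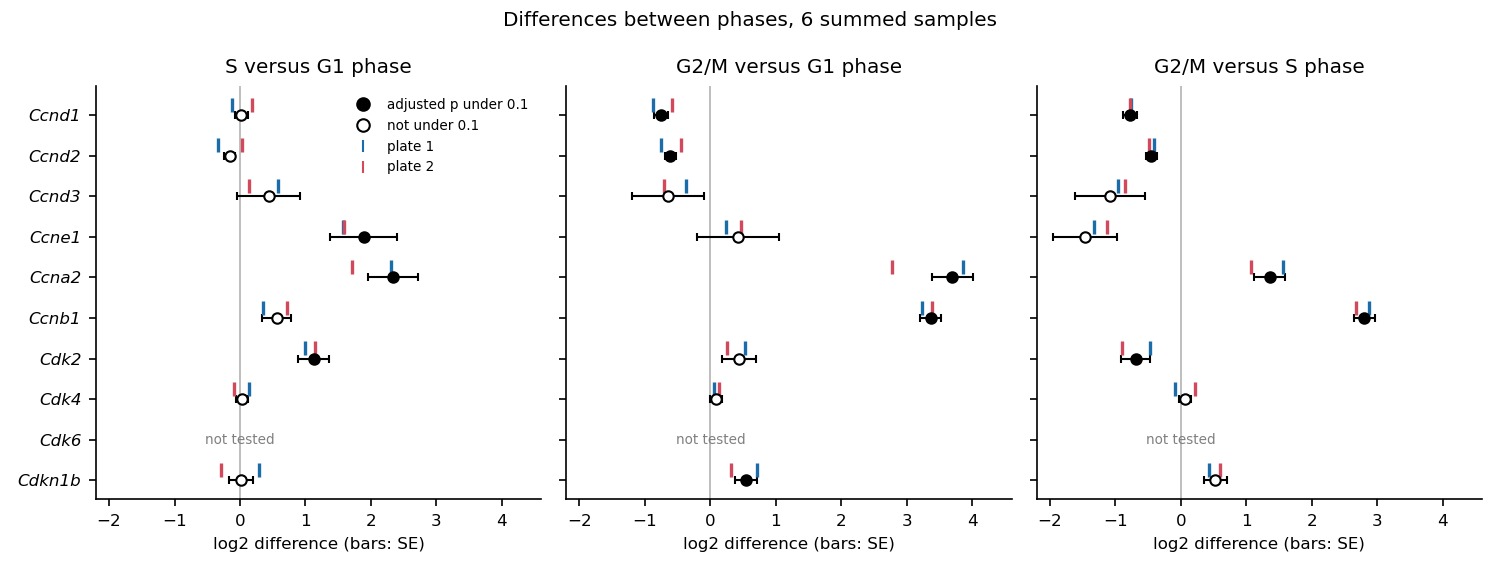
Log2 differences between phases for the 9 members tested, with the fitted value (circle, filled where the adjusted p is under 0.1) and its SE (bar). Ticks give the value of each plate, computed with a small count added to each sum. The fitted *Ccnb1* and *Ccna2* values lie above 3 for G2/M against G1, *Ccnd1* and *Ccnd2* lie below 0 for G2/M against both other phases on both plates, and the *Cdk4* values lie within 0.22 of 0.

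The deposited scores give a finer order than the 3 phases. Cells were ordered in 5 steps: both scores below 0 (132 cells), S with a G2/M score below 0 (56), S with both scores above 0 (21), G2/M with both scores above 0 (34) and G2/M with an S score below 0 (61). Levels over these steps are CPM of UMIs pooled over both plates, without TMM scaling, and are a description with no test. *Ccne1* was at 8.52, 30.8, 33.4, 23.8 and 1.59, so the last step, with a single *Ccne1* UMI in 61 cells, lay far below the first G2/M step. *Cdk2* had the same shape, at 51.5, 106, 137, 97.3 and 48.6. On each plate the first G2/M step was above the last for both genes (for *Cdk2*, 135 against 55.8 on plate 1 and 72.4 against 35.7 on plate 2), so the G2/M average given above joins cells of unequal levels.

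*Ccna2* was at 10.8, 33.6, 112, 135 and 158 over the 5 steps, and *Ccnb1* at 58.8, 71.4, 140, 574 and 671. Most of the difference in *Ccna2* thus lay between the first and the third step, within G1 and S cells, and most of that in *Ccnb1*, with both plates pooled, between the third and the fourth, where the call passes from S to G2/M. On plate 1 alone *Ccnb1* was at 151, 430 and 695 in the last 3 steps and on plate 2 at 131, 668 and 629. *Ccnd1* was at 839, 924, 668, 568 and 432, and *Ccnd2* at 2425, 2300, 2051, 1693 and 1508, so the pooled level of both was lower at each step after the second. Single plates had an exception each, since *Ccnd1* went from 670 to 764 between the third and the fourth step on plate 1 and *Ccnd2* from 1511 to 1529 between the last 2 steps on plate 2. *Cdkn1b* was at 139, 141, 161, 185 and 228, with its highest level in the last step on both plates and its lowest in the first step on plate 1 (128) and in the second on plate 2 (132). *Cdk4* stayed between 973 and 1097. With 10 to 81 cells per plate and step, single steps of low genes rest on few UMIs.

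**Figure D3:**
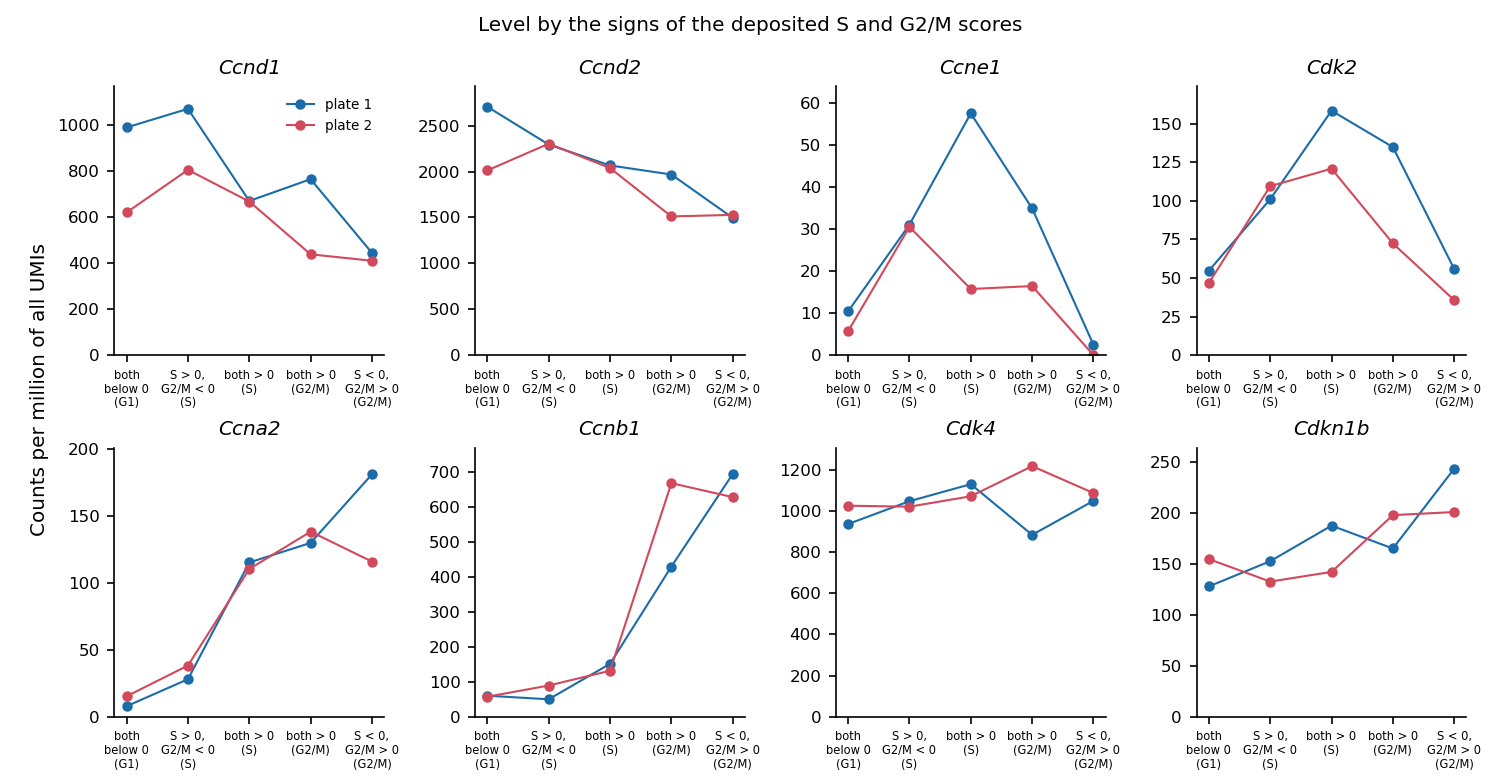
Level of 8 members (CPM, linear axis from 0) over the 5 steps of the deposited phase scores, with a line for each plate. *Ccne1* and *Cdk2* are highest in an S step and *Ccna2* and *Ccnb1* in a G2/M step on both plates, and *Ccnd1* is lowest in the last step on both plates, although its plate 1 value is higher in the fourth step than in the third.

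The share of cells with at least 1 UMI followed a similar order where the gene was neither near 0 nor near all cells. *Ccna2* was found in 9.09% of G1 cells (exact 95% binomial interval 4.79 to 15.3), 46.8% of S cells (35.3 to 58.5) and 74.7% of G2/M cells (64.8 to 83.1). *Ccnb1* was found in 39.4% (31.0 to 48.3), 59.7% (47.9 to 70.8) and 92.6% (85.4 to 97.0), and *Ccne1* in 8.33% (4.23 to 14.4), 33.8% (23.4 to 45.4) and 11.6% (5.92 to 19.8). *Cdk2* was found in 39.4%, 68.8% and 47.4%, and *Cdkn1b* in 71.2%, 80.5% and 81.1%. The share of *Cdkn1b* thus hardly differed between S and G2/M cells, whereas its CPM was higher in G2/M on both plates. *Ccnd1* was found in 88.4 to 96.1%, *Ccnd2* in 94.7 to 100% and *Cdk4* in 98.9 to 100% of the cells of a phase, so these shares leave little room for a phase difference. *Ccnd3* was found in 9.47 to 24.7% and *Cdk6* in 0.758 to 5.26%.

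These shares depend on depth, which was highest in S cells, so each cell was also thinned to 5000 UMIs, which kept 111 G1, 69 S and 79 G2/M cells. In thinned cells *Ccna2* was found in 6.31%, 27.5% and 51.9% of G1, S and G2/M cells, and *Ccnb1* in 26.1%, 40.6% and 89.9%, so the order was kept. *Cdk2* was then found in 19.8%, 39.1% and 36.7%, so the gap between S and G2/M cells was much smaller than before. *Cdkn1b* was found in 49.5%, 60.9% and 60.8%, again with hardly a gap between S and G2/M cells. *Ccne1* was found in 5.41%, 11.6% and 5.06%, with overlapping intervals, and *Ccnd3* in 9.01%, 5.8% and 3.8%, which is not the order of its CPM and from which no order is read. The data hold no cell type known to lack these genes, so a background share could not be measured.

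**Figure D4:**
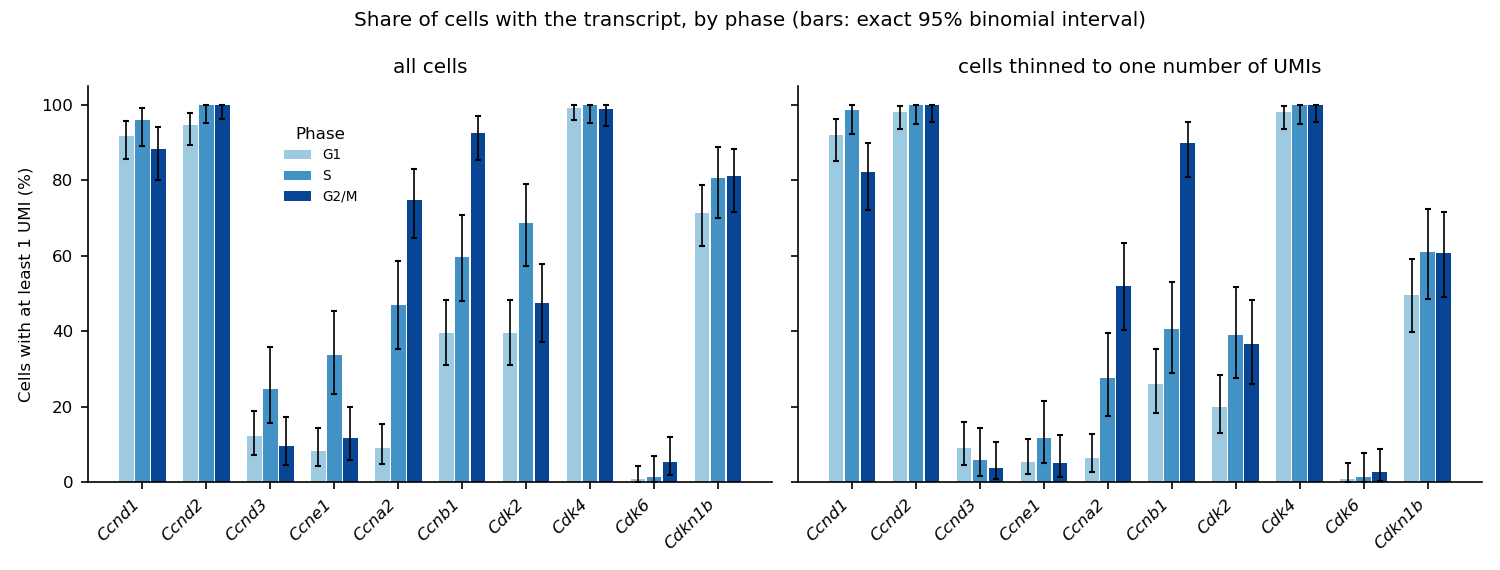
Share of cells with at least 1 UMI (%, axis from 0 to 100) of each member in G1, S and G2/M cells, for all 304 cells and for the 259 cells thinned to 5000 UMIs, with exact 95% binomial intervals. *Ccna2* and *Ccnb1* are lowest in G1 and highest in G2/M in both panels, whereas the higher share of *Cdk2* in S than in G2/M cells is seen in the left panel and nearly vanishes in the right one.

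The second comparison asked whether the members differed between high and low PLIN2-GFP NSPCs. None of the 9 members tested by edgeR was called, against a background of 0.886% of 8348 genes called higher and 1.26% called lower in high PLIN2-GFP NSPCs. limma voom also called 0 of the 9. DESeq2 called none of them either, but in this comparison it gave some genes no adjusted p. Its lack of calls is thus not a negative result for each member. At an unadjusted p under 0.05 there were 3: *Ccnd2*, *Cdk4* and *Ccnb1*. In this fit, simulated 2-fold changes were recovered for 73% of genes drawn at random and 1.5-fold changes for 22%, so smaller differences could be missed. The share for the members themselves was not measured.

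*Ccnd2* was at 2368 and 2135 CPM in high and 2189 and 1810 CPM in low PLIN2-GFP NSPCs. It was higher in the high category on each plate, by 0.11 and 0.24, but the categories overlapped between plates. The fitted log2 difference was 0.175 (SE 0.07, unadjusted p = 0.0113, adjusted p = 0.245). When the cells were also split by phase, *Ccnd2* was higher in the high category in 6 of 6 pairs of plate and phase, by 0.25, 0.30 and 0.13 for G1, S and G2/M on plate 1 and by 0.18, 0.21 and 0.34 on plate 2. With phase as a term over these 12 sums the difference was 0.23 and passed the threshold (adjusted p = 0.0378). These sums and pairs come from only 2 plates. The fit took the phase sums of a category on a plate as separate replicates, although they share that plate. Its p, and the pair counts here and below, thus rest on fewer independent units than their number. The *Ccnd2* difference also passed with scaling to library size only (0.24, adjusted p = 0.00383) and without the filter on low counts (0.19, adjusted p = 0.0903). In thinned cells it was 0.26 (adjusted p = 0.123), with adjusted p from 0.00383 to 1.0 over 19 settings. The call for *Ccnd2* thus depends on these choices, while its direction was the same in all of them. Astrocyte markers summed to 112 and 87.4 CPM in high and 81.7 and 65.3 CPM in low PLIN2-GFP NSPCs. Neuron markers went the other way, at 540 and 422 CPM in high and 554 and 567 CPM in low PLIN2-GFP NSPCs. The sums of NSPC and endothelial markers changed sign between the plates. The part of these markers in the differences between categories was not tested.

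*Cdk4* went the other way, at 946 and 1028 CPM in high and 1105 and 1163 CPM in low PLIN2-GFP NSPCs. The 2 categories did not overlap, yet the difference of -0.20 (SE 0.08, unadjusted p = 0.0137) did not pass after adjustment (adjusted p = 0.274). *Cdk4* was lower in the high category in 5 of 6 pairs of plate and phase, with 0.03 for G1 on plate 2 as the exception. With phase as a term the difference was -0.20 (adjusted p = 0.143), and in thinned cells it was -0.02 (adjusted p = 0.98, range 0.143 to 1.0 over 19 settings). Per cell, *Cdk4* gave more UMIs in the high category (11.6 and 15.1 against 8.84 and 13.3), and these cells held more UMIs in all.

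*Ccnb1* was at 280 and 288 CPM in high and 212 and 255 CPM in low PLIN2-GFP NSPCs, a log2 difference of 0.29 (SE 0.13, unadjusted p = 0.0246, adjusted p = 0.349). The high category held 38.0% G1, 27.7% S and 34.3% G2/M cells and the low category 47.9%, 23.4% and 28.7%. With phase as a term the *Ccnb1* difference was 0.10 (adjusted p = 0.842, range 0.132 to 1.0 over 18 settings), and *Ccnb1* was higher in the high category in 3 of 6 pairs of plate and phase. *Ccna2* was at 75.8 and 75.9 CPM in high and 68.4 and 64.4 CPM in low PLIN2-GFP NSPCs (log2 difference 0.19, SE 0.21, adjusted p = 0.847), but was lower in the high category in 5 of 6 pairs.

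The other members had an unadjusted p above 0.05 and were not called. *Ccnd1* was at 829 and 638 CPM in high and 888 and 603 CPM in low PLIN2-GFP NSPCs (log2 difference -0.02, SE 0.09, adjusted p = 0.977), so its plates differed by more than its categories. *Cdkn1b* was at 161 and 166 CPM against 182 and 165 CPM (-0.09, SE 0.15, adjusted p = 0.924) and *Cdk2* at 85.6 and 74.6 CPM against 76.3 and 75.9 CPM (0.08, SE 0.20, adjusted p = 0.951). *Ccne1* rested on 24 and 11 UMIs in high and 10 and 12 in low PLIN2-GFP NSPCs (0.44, SE 0.41, adjusted p = 0.794), with plates of opposite sign. *Ccnd3* was at 16.0 and 18.0 CPM against 19.1 and 14.0 CPM (-0.04, SE 0.40, adjusted p = 0.986), and *Cdk6* gave 2 UMIs in high and 5 in low PLIN2-GFP NSPCs.

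The last comparison asked whether the difference between categories depended on the phase, with an interaction term over 12 sums of plate, category and phase. Of the 10 members 7 passed the filter here, all but *Ccnd3*, *Ccne1* and *Cdk6*. None was called by edgeR, by DESeq2 or by limma voom, and 0 were under 0.05 before adjustment (lowest adjusted p = 0.975). Over all 6163 genes tested 0.0487% were called. In simulated data this test recovered 12% of 2-fold changes in genes drawn at random from all those tested. The share for the members themselves was not measured. The lack of a call thus does not show that the categories differ alike in each phase.

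**Figure D5:**
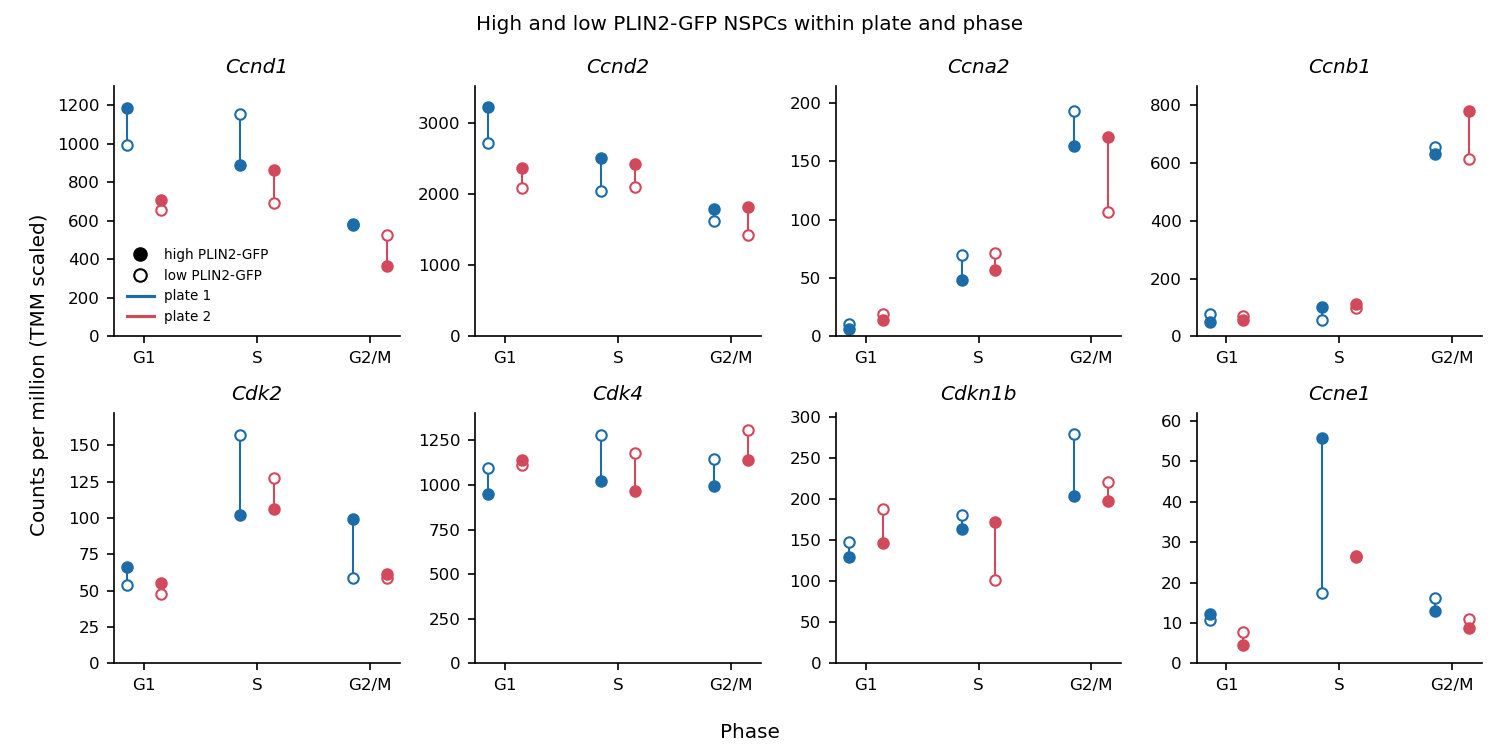
Level of 8 members (CPM after TMM scaling, linear axis from 0, a separate scale per gene) in high (filled points) and low (open points) PLIN2-GFP NSPCs of each phase, with a line that joins both categories of a plate. The filled *Ccnd2* point is the upper one in 6 of 6 pairs, with log2 differences between 0.13 and 0.34, and the filled *Cdk4* point is the lower one in 5 of 6 pairs, whereas *Ccnd1*, *Ccnb1* and *Ccne1* show both orders. The 6 pairs of a gene come from 2 plates and are not independent.

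Members also differed between the plates and between the 2 clusters of the deposited cell table, which are given as descriptions, with levels in CPM without TMM scaling. *Ccnd1* was at 834 on plate 1 and 607 on plate 2 and was lower on plate 2 in 6 of 6 pairs of category and phase. *Ccnd2* was at 2238 and 1926 and was lower on plate 2 in 4 of 6 pairs, and *Cdk4* was at 990 and 1074. The authors formed the clusters in Seurat after regressing out the phase, and so from these cells' own expression values. Cluster 0 held 155 cells and cluster 1 149 cells, with 43.9% and 43.0% of them in G1. *Ccnd2* was at 2671 in cluster 0 and 1793 in cluster 1 on plate 1 and at 2243 and 1569 on plate 2, lower in cluster 1 in 6 of 6 pairs of plate and phase. *Cdk4* was higher in cluster 1 on each plate (902 and 1081, 996 and 1163). *Cdkn1b* was lower in cluster 1 on each plate (179 and 153, 176 and 146), as was *Ccnd1* (890 and 778, 654 and 555), and *Ccna2*, *Ccne1*, *Ccnd3* and *Cdk2* changed sign between the plates.

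Other genes of the pathway were counted from lists. Over all genes, edgeR called 7.56% higher and 5.19% lower for S against G1, 9.01% and 7.4% for G2/M against G1, and 2.76% and 2.09% for G2/M against S. In the retinoblastoma and E2F list, 9 of 11 genes were tested between phases, and 5 were higher in S than in G1 and none lower, with a median log2 difference of 1.0 against -0.03 over all genes. These were *E2f1* (2.76, SE 0.36, adjusted p = 4.37e-06) and *E2f2* (3.12, SE 0.58, adjusted p = 0.000513), transcription factors that drive genes of DNA replication, *E2f3* (1.00), their partner *Tfdp1* (1.47) and the retinoblastoma relative *Rbl1* (1.82). For G2/M against G1, *Rbl1* (2.00), *Tfdp1* (0.93) and *E2f5* (0.78, with 1.47 on plate 1 and 0.07 on plate 2) were higher and none lower. From S to G2/M *E2f1* fell by 1.89 and *E2f2* by 1.46, and *E2f5* was higher by 1.17. Of these calls DESeq2 kept 4 of 5 for S against G1, 1 of 3 for G2/M against G1 (*Rbl1*) and 0 of 3 for G2/M against S, where it gave *E2f2* no adjusted p. limma voom kept 5, 3 and 2 of them, and the fit without plate as a block 4, 2 and 1. *E2f2* passed the filter only through its S sums and *E2f1* through those and 1 G2/M sum, so their differences were partly set by the filter. *Rbl1* was under the count minimum in the G1 sum of plate 2, so the same holds for its differences from G1. As with *Ccne1* and *Cdk2*, the level of *E2f1* and of *E2f2* was highest in S.

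Among enzymes that degrade, activate or inhibit the cyclin-CDK complexes, 13 of 13 were tested. 7 were higher in S than in G1 and none lower, among them *Fbxo5* (3.58, SE 0.38, adjusted p = 6.87e-08), an inhibitor of the anaphase-promoting complex, *Pkmyt1* (2.65), a kinase that holds CDK1 inactive, *Skp2* (1.81), which marks p27 for degradation, and *Plk1* (1.61), a mitotic kinase. For G2/M against G1, 7 were higher and none lower, led by *Plk1* (4.34, SE 0.29, adjusted p = 4.02e-12), *Ccnf* (3.44), *Fbxo5* (3.08) and *Cdc25b* (2.42), a phosphatase that activates CDKs. For G2/M against S, 4 were higher and none lower: *Plk1* (2.73), *Ccnf* (1.58), *Cdc25b* (1.38) and *Fzr1* (1.03), an activator of the anaphase-promoting complex. DESeq2 kept 2 of the 7 calls for S against G1 (*Fbxo5* and *Pkmyt1*), 5 of 7 for G2/M against G1 and 2 of 4 for G2/M against S (*Plk1* and *Fzr1*). limma voom kept 7, 7 and 2, and the fit without plate as a block 4, 5 and 4. Of the genes called, 5, 5 and 3 were under the count minimum of the filter in at least 1 of the 6 sums, so their differences were partly set by the filter. The medians were 0.94, 0.89 and 0.17, against -0.03, -0.01 and 0.0 over all genes. Over all genes, 7.56, 9.01 and 2.76% were called higher and 5.19, 7.4 and 2.09% lower.

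Of the other CDK inhibitors, 5 of 7 were tested between phases, beside the same shares called over all genes. *Cdkn2c*, the p18 gene, was higher in S than in G1 (0.77) and in G2/M than in G1 (1.55, SE 0.20, adjusted p = 8.88e-07) and S (0.78), and *Cdkn3*, which encodes a phosphatase of CDKs, was higher in G2/M than in G1 (1.94) and S (2.75). Of these calls DESeq2 did not make those of *Cdkn2c* for S against G1 (adjusted p = 0.509) and for G2/M against S (0.737), and without plate as a block the former was lost (0.111). *Cdkn3* passed the filter only through its G2/M sums and the G1 sum of plate 2, so its differences were partly set by the filter. Between categories 6 inhibitors were tested, against the background of 0.886% called higher, and *Cdkn2c* and *Cdkn2d*, the p19 gene, had an adjusted p under the threshold by edgeR and limma voom, whereas DESeq2 gave neither an adjusted p. *Cdkn2c* was at 152 and 145 CPM in high and 98.7 and 93.5 CPM in low PLIN2-GFP NSPCs (0.63, SE 0.17, adjusted p = 0.0206). Its call was lost with phase as a term (0.49, adjusted p = 0.171), without plate as a block (0.63, adjusted p = 0.884), in thinned cells (0.78, adjusted p = 0.115) and without any 1 of the 4 sums (adjusted p from 0.838 to 1.0, in fits with no plate term), and the difference was 0.08 for G1, 0.01 for S and 1.03 for G2/M cells alone. *Cdkn2d* rested on 16 and 13 UMIs in high and 2 and 4 in low PLIN2-GFP NSPCs (2.06, SE 0.57, adjusted p = 0.0256), passed the filter only through the high category, so its value is a description, and was not called without plate as a block (adjusted p = 0.707).

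The genes of the pathway that entered the phase scores differed between phases by their use there, and are given only as a description: 4 of 7 were higher in S than in G1 (*Ccne2*, *Cdk1*, *Cks2*, *Cks1b*), 6 of 7 were higher in G2/M than in G1, and *Ccne2* was lower in G2/M than in S by 2.80 on the log2 scale. Of the other cyclins and CDKs, 16 of 18 were tested. *Ccng1*, *Ccng2* and *Ccni*, atypical cyclins, were lower in S than in G1 (-0.56, -1.76 and -0.65), *Ccng1* and *Ccng2* were higher in G2/M than in S (0.46 and 2.38), and *Ccni* was lower in the high PLIN2-GFP category (-0.60, adjusted p = 0.0778). limma voom kept all 5 of these phase calls, DESeq2 none of them (adjusted p from 0.249 to 1.0), and the fit without plate as a block that of *Ccng2* for G2/M against S alone. *Ccng2* passed the filter only through its G1 and G2/M sums, with 5 and 3 UMIs in S. Its differences were thus partly set by the filter. The *Ccni* call between categories was lost without plate as a block (adjusted p = 0.996), with phase as a term (0.104), with scaling to library size only (0.141), without the filter (0.186) and without any 1 sum (0.463 to 1.0), and DESeq2 gave it no adjusted p. None of the 16 was called between G2/M and G1 by edgeR, DESeq2 or limma voom, and 0 had an unadjusted p under 0.05. Over all genes, edgeR called 9.01% higher and 7.4% lower there, and 7.56% and 5.19% for S against G1. For the 5 of 6 mitogen receptors and Myc genes tested, edgeR, DESeq2 and limma voom called 0 in each comparison, and at an unadjusted p under 0.05 there was 1 for S against G1, 1 for G2/M against G1 and 0 in the others. In the categories, edgeR and limma voom called 0 of the 11 retinoblastoma and E2F genes. They also called 0 of the 13 enzymes and 0 of the 7 scoring genes. The counts at an unadjusted p under 0.05 by edgeR were 1, 3 and 2. DESeq2 called none of these genes. Between categories it gave some genes, such as *Ccni*, no adjusted p. Its lack of calls there, also for the mitogen receptors, is thus not a negative result for each gene. Over all genes, edgeR called 0.886% higher and 1.26% lower in the high category.

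The genes whose levels went most closely with each member over the 12 sums of plate, category and phase are given as a description, among 6163 genes and without a test, since the sums share plates, phases and depth. For *Ccna2* these were *Kif20a* (Pearson r = 0.982), *Sephs1* (0.977) and *Mki67* (0.975), and for *Ccnb1* they were *Ube2c* (0.976), *Gm18649* (0.966) and *Gas2l3* (0.964). For *Cdk2* they were *Hells* (0.962), *Fam111a* (0.935) and *Rfc1* (0.921). *Mki67*, *Ube2c*, *Gas2l3* and *Hells* are themselves genes of the phase scores. *Ccnd1* went with *Wdr6* (0.945), *Mxra8* (0.911) and *Inka2* (0.893), and *Ccnd2* with *Golph3* (0.95), *Sparc* (0.905) and *Epn2* (0.905). *Cdk4* went with *Snhg1* (0.895), *Polr2f* (0.888) and *Zmiz2* (0.881), and *Cdkn1b* with *Snrpb2* (0.933), *Hnrnpa0* (0.915) and *Fzd2* (0.878). Among the members, *Ccna2* and *Ccnb1* had an r of 0.847 and *Ccnd1* and *Ccnd2* of 0.752, whereas *Ccnd2* and *Ccna2* had -0.828 and *Ccnd1* and *Ccnb1* -0.814.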

How the data were processed

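Single cells were sequenced by SORT-seq on 2 plates, and a deposited table of 304 cells gives the plate, PLIN2-GFP category, phase and cluster of each. The deposited values are expected counts, that is UMI counts per gene estimated by the authors with Salmon/alevin on GRCm38 (versions and strand setting not given in the sources used here), and parts of a UMI occur, in 11.1% of the values above 0 of *Ccnd2*. The authors kept cells by a mitochondrial percentage (percent of UMI counts, deposited; 11 cells were at or above 20%) and removed doublets before deposit, so no doublet caller was run. The deposited S and G2/M scores, phases and clusters come from the authors' Seurat analysis, and the deposited number of genes per cell is a count. Columns of the count table were joined to cells by equal total and number of genes, which gave 304 unique pairs and left 0 columns over.

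From these, expected counts were summed per plate and category (4 sums of 777897 to 1028930 UMIs), plate and phase (6 sums of 460184 to 767257) or all 3 (12 sums of 186088 to 413237) and rounded to whole numbers. The fits left 1, 2 and 5 residual degrees of freedom. edgeR 4.0.16 in R 4.3.3 (TMM, filterByExpr, quasi-likelihood F test, plate as a block) was the main test, with Benjamini-Hochberg adjustment over all genes tested and a threshold of 0.1. An SE is the absolute log2 difference divided by the square root of F. Same-numbered sums come from the same plate, and their deviations from the group means correlated (r = 0.3 for 4 sums, 0.216, 0.224 and 0.195 for 6). DESeq2 1.42.0, limma 3.58.1, other scalings and filters, thinning to 5000 UMIs per cell (45 cells left out), cells under 20% mitochondrial counts, cells away from phase borders (41 left out, scores within 0.05) and leaving out each sum were alternatives. The fits were tested on simulated data, with 200 changed genes drawn at random from those tested. The simulated counts had a common spread for all genes and no difference between plates. For the interaction, the changes were placed in the high S sums. Named genes are the members, at most 4 called genes per list, comparison and direction with the smallest p, all genes behind a count of 5 or fewer, and the 3 genes most correlated with each member above a mean of 30 CPM. The members and lists were chosen with earlier results of these data known. The list of well barcodes was not used. Of the marker lists, 1 is not reported here.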

Additional observations from a re-analysis of the deposited data

How the results depend on the processing

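Over 19 settings at most for each value, *Ccnb1* in G2/M against G1 and S, *Ccna2* in S and G2/M against G1, *Ccnd1* in G2/M against G1 and S and *Ccnd2* in G2/M against G1 kept their direction and were called wherever a test was run (highest adjusted p 0.0538, for *Ccnd1* in G2/M against S). The number of members called between categories rose from 0 to 1 (*Ccnd2*) with library size only and without the filter on low counts. It did so too with phase as a term, where phase sums of the same plate were taken as separate replicates. It fell from 3 to 1 for S against G1 with DESeq2, and from 5 to 3 for G2/M against S without the replicate block, with DESeq2 and in thinned cells. Leaving out 1 sum gave 0 to 0 members called between categories, 2 to 4 for S against G1, 4 to 5 for G2/M against G1 and 3 to 7 for G2/M against S. With the 4 sums these fits had no plate term, and where a single sum was left, its variation was taken to equal that of the rest. For the interaction, leaving out a plate left no test, and the values of each plate stand in the report. Signs turned only for differences that were not called. Between categories these were *Ccnd1* (0.052 with library size only, 0.001 without the filter, 0.18 in G1 cells, -0.27 to 0.29 without 1 sum or plate), *Ccnd3* (0.024 with library size only, -0.30 to 0.27), *Ccna2* (-0.057 with phase as a term, -0.42 in S cells), *Ccnb1* (-0.51 in G1 cells), *Cdk2* (-0.41 in S cells, -0.021 to 0.181), *Ccne1* (-0.036 to 0.749) and *Cdkn1b* (0.32 in S cells, -0.167 to 0.007). For S against G1 these were *Ccnd1* (-0.13 to 0.20), *Ccnd2* (-0.337 to 0.038), *Cdk4* (-0.10 to 0.17) and *Cdkn1b* (-0.001 without the filter, -0.019 in cells under 20% mitochondrial counts, -0.28 to 0.29). For the others they were *Ccne1* in G2/M against G1 (-0.062 without cells near phase borders) and *Cdk4* in G2/M against S (-0.091 to 0.217). Over all genes, the 179, 975, 1255, 371 and 3 genes called between categories, for S against G1, G2/M against G1, G2/M against S and the interaction became 1, 444, 653, 184 and 0 without the replicate block and 11, 207, 317, 82 and 0 with DESeq2. Thinning gave 68, 412, 657 and 161 for the first 4, a minimum of 50 counts 617 and 807 for S and G2/M against G1, and G1, S and G2/M cells alone 8, 65 and 60 between categories. The 3 genes of the interaction became 7 with limma voom, 14 without the filter, 0 with a minimum of 50 counts and 5 under 20% mitochondrial counts. Leaving out 1 sum gave 6 to 22, 477 to 1048, 697 to 1283 and 156 to 435. With library size only, 153 higher and 85 lower genes replaced 74 and 105 between categories, and 682 and 242 replaced 578 and 397 for S against G1. The cause of these changes was not tested. Without the replicate block no further member's call changed beyond those named in the report. Depth limited *Ccnd3*, *Ccne1* and *Cdk6*, with 57 UMIs or fewer in all.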
